A study of Mus musculus with 9 samples.

Results

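The genes described here are 10 brakes on the response of macrophages to bacterial lipopolysaccharide (LPS): Tnfaip3, Nfkbia, Nfkbib, Nfkbie, Tnip1, Socs3, Zfp36, Dusp1, Irak3 and Cyld. They were chosen by name, with earlier results of these data known, and each matched 1 row of the 22165 gene rows in the count table. Counts of members set beside shares of all genes below are therefore descriptions. RNA was sequenced from mouse bone marrow-derived macrophages, which are grown from marrow cells in culture, taken from C57BL/6N mice aged 6 to 16 weeks. Every group received LPS at 100 ng/mL for 24 h, so no library is unstimulated and induction by LPS itself cannot be read from these data. The 3 groups of 3 libraries were wildtype (WT), Irg1-/- (KO), and Irg1-/- with 1 mM itaconate given 4 h after LPS (KO with itaconate). The product of Irg1 (current symbol Acod1) makes itaconate from an intermediate of the citric acid cycle. Which stretch of the gene was deleted is not stated in the labels.

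LPS binds Toll-like receptor 4, and adaptor and kinase complexes then free NF-κB from its inhibitors and start the MAP kinases. Many inhibitors of these steps are themselves NF-κB target genes, which closes a negative feedback loop. In macrophages the loop limits inflammatory cytokine output and contributes to tolerance of a repeated LPS dose. Its members act at different levels. Irak3 (IRAK-M) blocks signalling at the receptor complex, Tnfaip3 (A20), Tnip1 (ABIN1) and Cyld remove or read the ubiquitin chains that carry the signal, and Nfkbia, Nfkbib and Nfkbie encode the inhibitors IκBα, IκBβ and IκBε that hold NF-κB in the cytoplasm. Dusp1 dephosphorylates MAP kinases, Zfp36 (tristetraprolin) promotes decay of cytokine mRNAs such as that of Tnf, and Socs3 restrains cytokine receptor signalling through JAK kinases.

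RefSeq promoter sequences (build GRCm38.p6) were matched for all 10 genes, as 12 promoters. Their start sites can differ from the ends of the gene spans given below, which come from the GENCODE annotation. The printed stretches of Dusp1, Socs3 and Tnfaip3 lie inside those spans. In the 250 bases before the start site, 5 of the 12, each of a different gene, held the NF-κB consensus on either strand, against 3.90% of 32851 mouse promoters. Capitals mark that consensus in the following stretches, which are shown because NF-κB is the factor that this loop restrains, each read 5′ to 3′ along its gene. Overlapping matches in the Tnip1 promoter are shown as 1 of them.
Nfkbia, chr12:55492648-55492897, minus strand: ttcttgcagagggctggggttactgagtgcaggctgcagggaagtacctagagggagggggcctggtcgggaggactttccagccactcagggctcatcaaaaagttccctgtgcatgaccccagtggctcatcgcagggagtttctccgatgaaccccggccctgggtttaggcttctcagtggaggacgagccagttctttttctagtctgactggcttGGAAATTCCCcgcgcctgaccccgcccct
Tnfaip3, chr10:19015411-19015440, minus strand: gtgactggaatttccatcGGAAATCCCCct
Tnfaip3, chr10:19015516-19015545, minus strand: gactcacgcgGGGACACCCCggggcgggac
Tnip1, chr11:54962978-54963007, minus strand: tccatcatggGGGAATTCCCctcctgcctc
Nfkbie, chr17:45555584-45555613, plus strand: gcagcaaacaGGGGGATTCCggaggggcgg
Cyld, chr8:88696863-88696892, plus strand: ttgaccgagcGGAAAGTCCCttcagccagc

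Other members carried letters of other inducible pathways. The STAT-type element TTCNNNGAA, which reads the same on both strands, lay in the Socs3 promoter and also in those of Tnip1 and Zfp36, against 7.02% of all promoters. The cyclic AMP response element TGACGTCA, also a palindrome, was found among the members only in the Dusp1 promoter, against 1.55% of all promoters. Capitals mark these elements below, shown for the members whose windows lacked the NF-κB consensus.
Socs3, chr11:117969501-117969530, minus strand: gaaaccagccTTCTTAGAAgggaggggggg
Dusp1, chr17:26508597-26508626, minus strand: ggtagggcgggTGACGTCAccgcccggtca
The Zfp36 stretch overlaps an annotated exon and is not printed. The 3 motifs were picked after these promoter sequences had been read, so the shares are a description of letter matches, and binding was not measured here.

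Gene reads per library ranged from 7361671 to 20430359. Levels are given as CPM, read counts relative to library size, scaled by the trimmed mean of M-values (TMM), with the SD over 3 libraries. Acod1, the targeted gene (chromosome 14, 103046977 to 103056573, plus strand, GRCm38), went against the labels of 4 libraries. It stood at 4170, 4421 and 6421 CPM in replicate 3 of WT, KO and KO with itaconate, and at 0.877 to 12.9 CPM in the other 6, so every direction below is one between labels. The library labelled KO with itaconate replicate 3 had a mean correlation of 0.909 with the other 8, which had 0.939 to 0.954. That library also had the largest share of reads outside genes (33.7%), the smallest mitochondrial share of gene reads (0.709%) and the lowest TMM factor (0.913). The part of this in the values below was not tested. In CPM without that scaling, macrophage markers (8 of 8 tested) summed to 7591 to 10155 CPM in WT, 6671 to 7449 CPM in KO and 3350 to 7285 CPM in KO with itaconate. Neutrophil and granulocyte precursor markers (5 of 8 tested) summed to 249 to 258, 165 to 218 and 72.8 to 221 CPM, and stromal markers (5 of 6 tested) to 194 to 274, 196 to 221 and 167 to 261 CPM. Of the T cell, B cell and dendritic cell markers 0, 1 and 1 were tested. They summed to at most 1.18, 1.47 and 3.33 CPM, and the T and B cell genes Cd3e, Cd8a, Cd79a and Pax5 had no read. In such bulk RNA fewer cells of a type and less RNA per cell cannot be told apart, and the part of these differences in the results was not tested. Separate animals or cultures are not named for the replicates, and the p-values therefore cover library-to-library spread that may be technical.

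All 10 members passed the filter on low counts, among 10781 genes tested. None passed the threshold of the edgeR quasi-likelihood test (adjusted p under 0.05) in any of the 3 comparisons, and 0% of all tested genes did. At an unadjusted p under 0.05 in edgeR, 1 of the 10 members was found in KO against WT (3.13% of all genes), 5 in KO with itaconate against KO (8.3%) and 3 in KO with itaconate against WT (8.89%). The 5 were 3 higher (4.19% of all genes) and 2 lower (4.11%), and the 3 were 2 higher (5.32%) and 1 lower (3.56%). The 1 in KO against WT, Irak3, was higher (2.45%), with a log2 fold change of 0.99 that was 0.30 without KO replicate 1. Of the 5, Irak3 moved from -0.85 to -0.16 without that library, and Nfkbie from 2.02 to -0.14 without KO with itaconate replicate 2. DESeq2 and limma-voom called no member in any comparison. The least-covered member in any library was Nfkbib with 133 reads, where counting error alone is 8.67% of the value. The SD within a group was 2.75% of the mean (Tnip1 in WT) to 135% (Nfkbie in KO with itaconate). The values by library are plotted next.

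**Figure D1:**
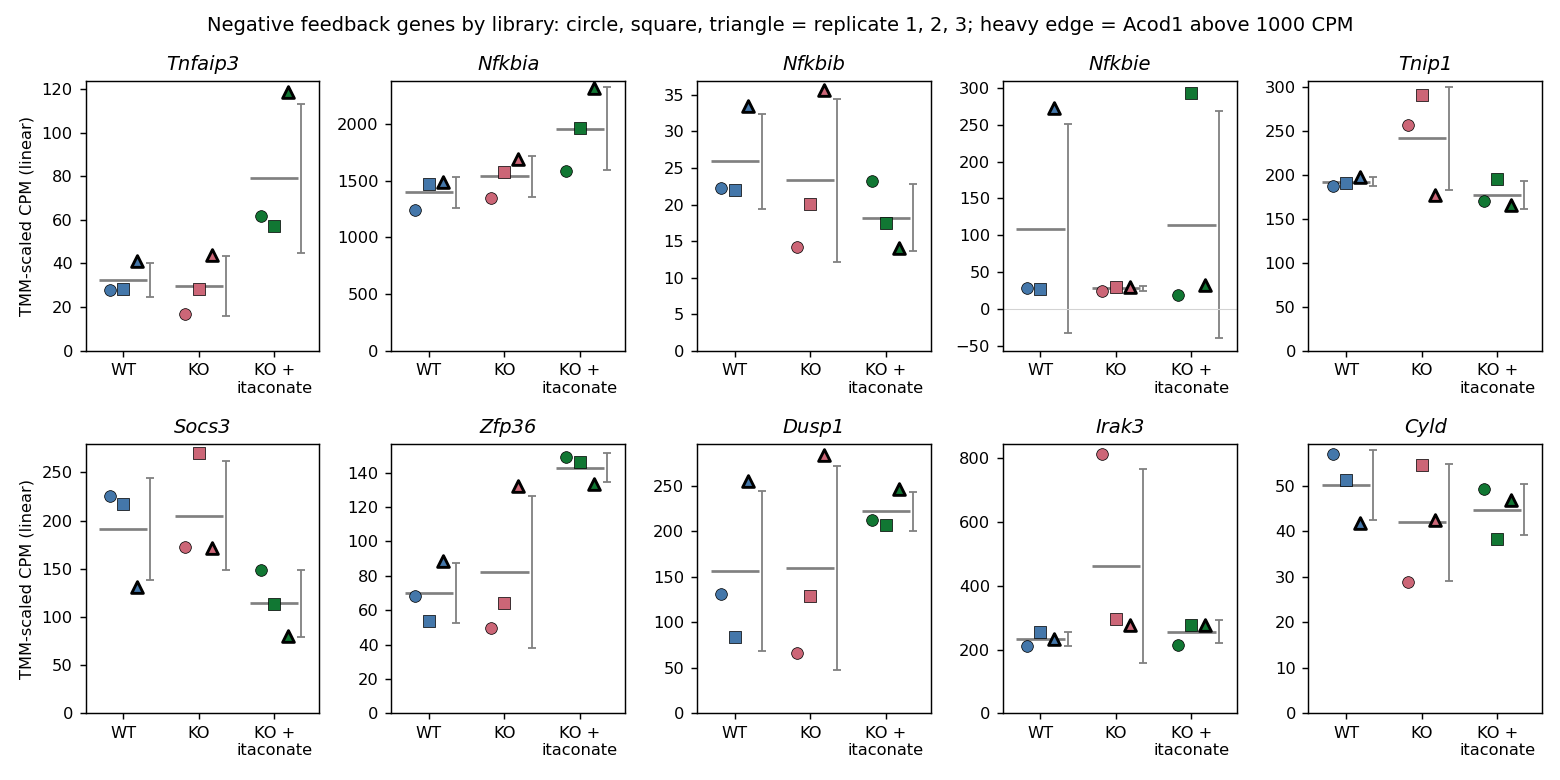
TMM-scaled CPM (linear axes) of the 10 genes in the 9 libraries, with the group mean as a grey line and the SD over 3 libraries as a bar. Tnfaip3 in KO with itaconate lies above all other libraries, whereas 1 library each sets the WT and the itaconate mean of Nfkbie and the KO mean of Irak3.

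Tnfaip3 encodes A20, the ubiquitin-editing enzyme that ends signalling from the receptor complexes to the IκB kinase (chromosome 10, 19000910 to 19015657, minus strand). It stood at 27.8, 28.1 and 41.2 CPM in WT replicates 1 to 3. In KO it was at 16.6, 28.2 and 44.0 CPM. In KO with itaconate it was at 61.6, 57.0 and 119 CPM. All 3 libraries with itaconate lay above all 6 without it. Itaconate libraries lay above those of KO for 5.61% of tested genes and above those of WT for 7.3%. The share for both at once was not computed. The difference between KO with itaconate and KO was 1.42 ± 0.39 on the log2 scale (SE), which is 2.68-fold, with an unadjusted p of 0.00222 and an adjusted p of 0.507 in edgeR. Against WT it was 1.29 ± 0.38 (adjusted p = 0.515 in edgeR). KO against WT was -0.13 ± 0.38. Leaving out 1 library at a time gave 1.00 (without KO with itaconate replicate 3) to 1.81 (without KO replicate 3) for KO with itaconate against KO, and at least 0.88 against WT. With no filter on low counts the first of these was called (1.40, edgeR adjusted p = 0.0314), as were 0.536% of all genes in that fit. Over all settings tried its adjusted p in edgeR, DESeq2 and limma-voom ran from 0.0314 to 1. With the pool as a term it was 0.49 and against WT -0.05. Pools here are the numbers before the barcodes in the labels. WT and KO replicates 1 and 2 and WT replicate 3 are in pool 1, KO replicate 3 and KO with itaconate replicate 1 in pool 2, and the other 2 itaconate libraries in pools 3 and 4. No itaconate library is in pool 1, which holds every library without itaconate except KO replicate 3. Pool and itaconate can therefore hardly be told apart. The pool fit compares itaconate with KO through the pair in pool 2 alone. Its value against WT joins that pair to the KO and WT libraries of pool 1, since no pool holds both itaconate and WT libraries.

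Tnip1 encodes ABIN1, which binds ubiquitin chains and brings A20 to its targets (chromosome 11, 54910785 to 54962917, minus strand). Its WT libraries were close together at 188, 191 and 198 CPM. KO libraries were at 257, 291 and 177 CPM, and those with itaconate at 171, 196 and 166 CPM. KO replicates 1 and 2 were thus the highest of the 9, and KO replicate 3 fell among the itaconate libraries. KO with itaconate against KO gave -0.44 ± 0.27, opposite in sign to Tnfaip3, with an adjusted p of 0.679 in edgeR, and KO against WT gave 0.33 ± 0.27. With the pool as a term the first was -0.05. Leaving out 1 library at a time gave -0.64 to -0.29 for the first and 0.17 (without KO replicate 2) to 0.53 (without KO replicate 3) for the second. Cyld, a deubiquitinase that cleaves signalling chains (chromosome 8, 88697028 to 88751945, plus strand), stood at 41.9 to 57.1 CPM in WT, 28.9 to 54.7 CPM in KO and 38.4 to 49.2 CPM in KO with itaconate. These ranges overlapped in every comparison, and the fold changes were -0.26 ± 0.29, 0.09 ± 0.29 and -0.16 ± 0.29.

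The 3 IκB genes did not share a pattern. Nfkbia, which encodes IκBα and is resynthesised after each round of NF-κB activation (chromosome 12, 55489410 to 55492647, minus strand), was at 1237, 1471 and 1483 CPM in WT. It was at 1343, 1579 and 1689 CPM in KO. In KO with itaconate it was at 1588, 1966 and 2319 CPM. The itaconate libraries lay above all WT libraries, as for 7.3% of tested genes, and 1 of them lay below KO replicate 3. The difference was 0.49 ± 0.26 against WT and 0.35 ± 0.26 against KO (edgeR adjusted p = 0.588 and 0.734). This is a 1.4-fold and a 1.27-fold difference. Without KO with itaconate replicate 3 they were 0.35 and 0.20, and with the pool as a term -0.02 and -0.09.

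Nfkbib, which encodes IκBβ (chromosome 7, 28758251 to 28767512, minus strand), had its highest values in WT replicate 3 and KO replicate 3, at 33.4 and 35.7 CPM. The other WT libraries were at 22.2 and 22.0 CPM, and the other KO libraries at 14.2 and 20.04 CPM. Those with itaconate were at 23.2, 17.4 and 14.1 CPM. The groups overlapped in all comparisons, and KO with itaconate differed from WT by -0.50 ± 0.35 and from KO by -0.35 ± 0.35. The latter was 0.08 without KO replicate 3. A pool term in the fit gave -1.22 and -0.62.

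Nfkbie encodes IκBε (chromosome 17, 45555703 to 45563169, plus strand). It stood at 18.9 to 32.4 CPM in 7 libraries, among them every KO library. In WT replicate 3 it was at 272 CPM, and in KO with itaconate replicate 2 at 292 CPM. The lower of these lay 8.41-fold above the next library. They carry different genotypes and treatments and come from different pools, pool 1 and pool 3, but are the only 2 of the 9 libraries whose labels give the same sample barcode, GCACATCT. The group means were 109 ± 141 CPM in WT, 28.2 ± 3.1 CPM in KO and 115 ± 154 CPM in KO with itaconate. The log2 fold changes of -1.95 ± 0.93 for KO against WT and 2.02 ± 0.93 for KO with itaconate against KO (edgeR adjusted p = 0.995 and 0.597) rest on them. Without both libraries the values were 0.03 and -0.13, and KO with itaconate against WT, 0.07 ± 0.89 with all libraries, was -0.10.

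Nfkbie was not alone in this, by a tally whose thresholds were chosen after its values had been seen. Among 7291 genes with a mean of at least 10 CPM, 47 had their 2 highest libraries at least 2-fold above the next, spread over 11 different pairs of libraries. In 12 of the 47 the pair was WT replicate 3 and KO with itaconate replicate 2, and in 19 it was KO replicate 1 and KO with itaconate replicate 3. At a 4-fold gap 2 genes were left, and Nfkbie was the one for the pair with the shared barcode. The tally moved with the scaling. On CPM without TMM factors it held 37 of 7293 genes, with 13 for each of these 2 pairs, and again 2 genes at a 4-fold gap, 1 of them Nfkbie. The other 11 genes of that pair, named after their values were seen, were Aaed1, Arhgdib, C2cd2, Cblb, Cyth4, Errfi1, Hibch, Nacc1, Smcr8, Tm9sf4 and Vwa5a. Among them, Cblb encodes a ubiquitin ligase and Hibch an enzyme of valine breakdown. The part of the barcode in these values was not tested.

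**Figure D2:**
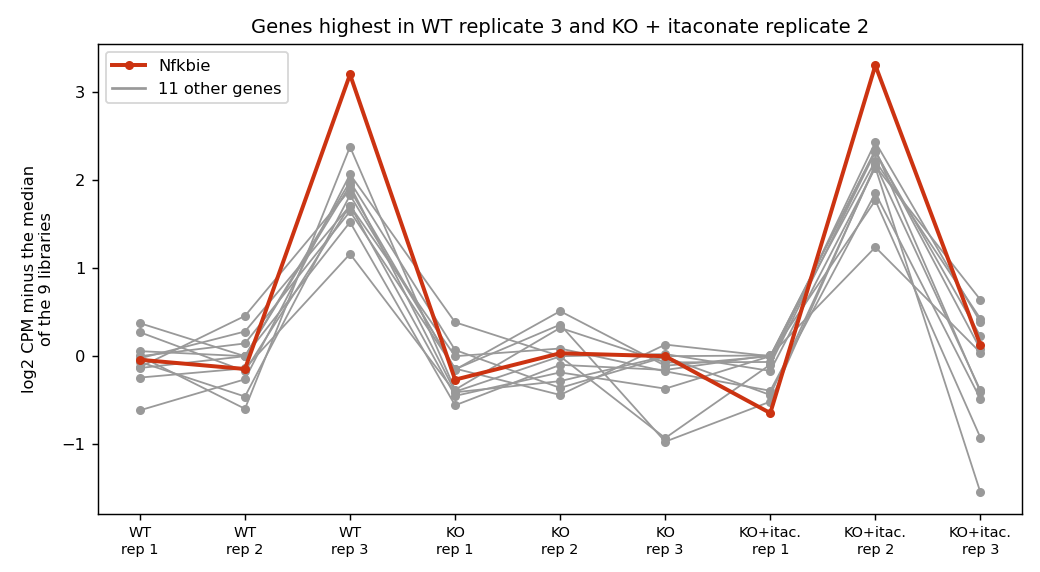
Log2 CPM of the 12 genes that were highest in WT replicate 3 and KO with itaconate replicate 2, as the difference from each gene's median over the 9 libraries (vertical axis) in each library (horizontal axis). The red line is Nfkbie, at 272 and 292 CPM in those libraries and 18.9 to 32.4 CPM in the other 7.

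At the receptor, Irak3 encodes IRAK-M, a kinase-like protein that hinders release of IRAK proteins from the receptor complex (chromosome 10, 120141648 to 120202130, minus strand). It was at 210, 254 and 232 CPM in WT. In KO it was at 812, 296 and 276 CPM. With itaconate it was at 215, 278 and 276 CPM. All KO libraries lay above all WT libraries, as for 4.85% of tested genes, but KO replicate 1 was 2.74-fold above the next library of all 9. KO against WT gave 0.99 ± 0.37 (unadjusted p = 0.0172, adjusted p = 0.995 in edgeR) and 0.30 without KO replicate 1. KO with itaconate against KO gave -0.85 ± 0.37 (unadjusted p = 0.0365, adjusted p = 0.582 in edgeR) and -0.16 without that library. A pool term gave 1.26 for the former comparison and -0.36 for the latter. KO replicate 1 was at least 2-fold above every other library for 58 of the 7291 genes with a mean of at least 10 CPM. KO with itaconate replicate 3 was so for 113, and each of the remaining libraries for at most 10.

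Among the members that act outside the NF-κB core, Zfp36 and Dusp1 had the most alike patterns. Zfp36 encodes tristetraprolin, which binds AU-rich elements of cytokine mRNAs (chromosome 7, 28376784 to 28380253, minus strand). It was at 68.2, 53.7 and 88.4 CPM in WT. In KO it was at 49.9, 64.4 and 132 CPM. With itaconate it was at 149, 146 and 134 CPM, a narrow range. These lay above all WT libraries (7.3% of tested genes) and, narrowly, above all KO libraries (5.61%). KO with itaconate replicate 3 (133.6 CPM) exceeded KO replicate 3 (132.3 CPM) by less than the counting errors of 2.81% and 2.73%. Their order rests on the scaling, since KO replicate 3 had more Zfp36 reads (1344 against 1263) among fewer gene reads (10200503 against 10374213). The difference of KO with itaconate was 1.03 ± 0.35 against WT, or 2.04-fold (unadjusted p = 0.0104, adjusted p = 0.518 in edgeR). Against KO it was 0.80 ± 0.35, or 1.74-fold (unadjusted p = 0.037, adjusted p = 0.584). KO replicate 3 was at 132 CPM, next to the itaconate libraries, and without it the latter value was 1.31. With the pool as a term the differences were -0.12 and 0.17.

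Dusp1 encodes a nuclear phosphatase that switches off p38 and JNK (chromosome 17, 26505590 to 26562128, minus strand). It stood at 131, 84.3 and 255 CPM in WT and at 66.5, 129 and 284 CPM in KO. The itaconate libraries were at 212, 207 and 246 CPM. These sat between the low and the high libraries of the other groups, so the groups overlapped. KO with itaconate against KO gave 0.47 ± 0.46 and against WT 0.50 ± 0.46 (edgeR adjusted p = 0.812 and 0.756). The first was 1.18 without KO replicate 3 and 0.10 without KO replicate 1. The second was 1.04 without WT replicate 3 and 0.20 without WT replicate 2. The pool term turned both, to -0.42 and -1.10. Within KO, the SD was 70.1% of the mean, against 9.66% among the itaconate libraries.

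Socs3 encodes an inhibitor of JAK-STAT signalling from receptors of the interleukin-6 family (chromosome 11, 117966079 to 117970047, minus strand). It was at 226, 217 and 131 CPM in WT. In KO it was at 173, 270 and 172 CPM. With itaconate it was at 149, 113 and 80.3 CPM. Every itaconate library lay below every KO library, as for 5.29% of tested genes, whereas WT replicate 3 lay inside the itaconate range. KO with itaconate against KO gave -0.84 ± 0.33, a fold of 0.557 (unadjusted p = 0.0206, adjusted p = 0.529 in edgeR). Against WT it was -0.74 ± 0.33 (unadjusted p = 0.0373, adjusted p = 0.549). Leaving out 1 library at a time gave -1.09 to -0.59 for the first and -0.99 to -0.54 for the second. The pool term gave -0.20 and 0.01, and the second was 0.0014 when the 4 libraries with Acod1 reads opposite to their labels were left out.

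**Figure D3:**
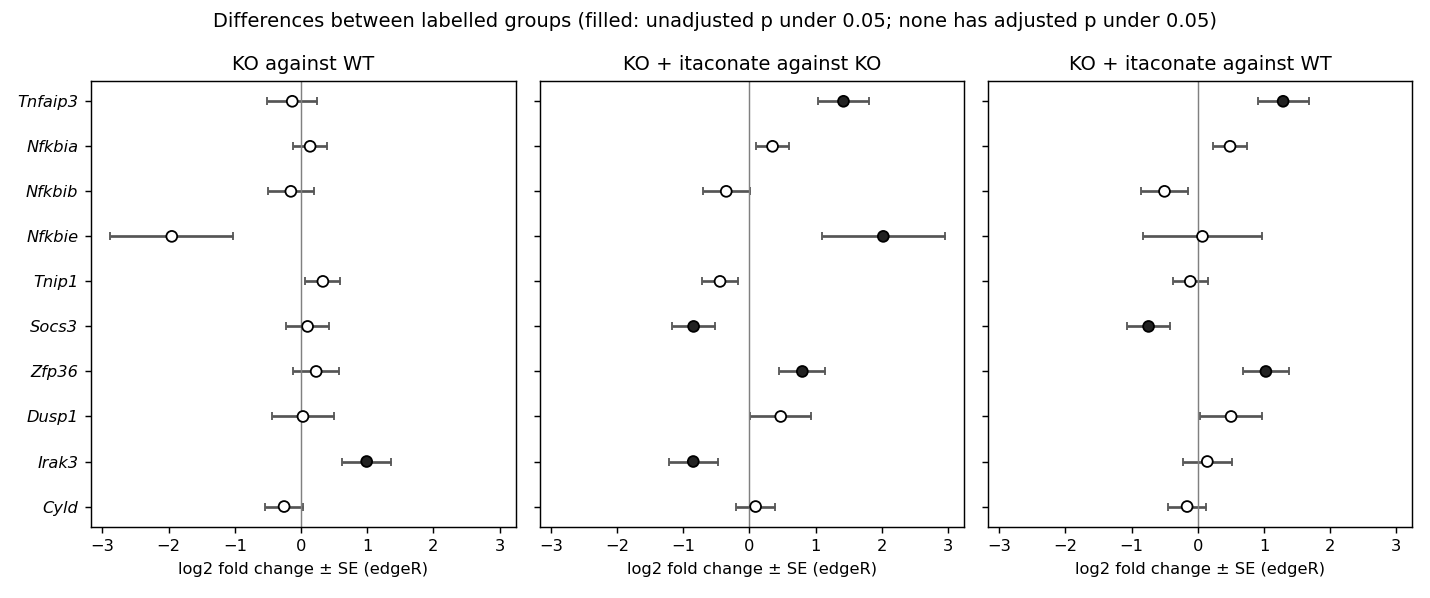
Log2 fold changes (horizontal axis) with their SE from the edgeR fit of all 9 libraries, for the 10 genes in the 3 comparisons. Tnfaip3 and Zfp36 lie to the right in both comparisons with itaconate and Socs3 to the left, and the widest bars are those of Nfkbie.

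The comparison of KO with WT asked what loss of the itaconate-producing enzyme, as labelled, does to the feedback genes. Of the 10 members 6 had a log2 fold change above 0, against 48.9% of tested genes, and the median was 0.06, against -0.01 over all genes. The groups did not overlap for 1 member, Irak3, and for 10.6% of tested genes, 4.85% higher and 5.76% lower in KO. Pool 1, which holds 3 WT and 2 KO libraries, allows a comparison within 1 pool. There Nfkbie was at -1.96, Dusp1 at -0.66, Nfkbib at -0.57, Tnfaip3 at -0.51, Zfp36 at -0.27 and Cyld at -0.25. On the other side were Nfkbia at 0.09, Socs3 at 0.23, Tnip1 at 0.53 and Irak3 at 1.28, and none was called.

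The comparison of KO with itaconate against KO asked what added itaconate does in cells labelled as lacking the enzyme. On each side 1 library, replicate 3, had high Acod1 (4421 CPM in KO and 6421 CPM in KO with itaconate). Again 6 of 10 members were above 0 (48.4% of tested genes), with a median of 0.22 against -0.02 over all genes. The groups did not overlap for 3 members, Tnfaip3 and Zfp36 on the higher side and Socs3 on the lower. They did not for 10.9% of tested genes, 5.61% higher and 5.29% lower. For Zfp36 the gap was smaller than the counting error and rested on the scaling. Without the 4 libraries that go against their Acod1 labels, an alternative added once the data were known, 2 members were called by edgeR, Zfp36 (1.34, adjusted p = 0.049) and Nfkbie (2.45, adjusted p = 0.04997). Their largest adjusted p over all settings was 1. In that fit 217 of 11342 genes (1.91%) were called, 2 libraries are left in each of these groups, and Nfkbie rests on 1 of them. All KO libraries then come from pool 1 and all itaconate libraries from other pools, so pool and itaconate cannot be told apart there. With all 9 libraries, only pool 2 holds both labels, with 1 library of each.

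The comparison of KO with itaconate against WT asked what distance from wild type is left after treatment. Members above 0 numbered 6 of 10 (49.1% of tested genes), with a median of 0.11 against -0.01 over all genes. The groups did not overlap for Tnfaip3, Nfkbia and Zfp36, all higher with itaconate, and for 14.6% of tested genes, 7.3% on the higher side and 7.25% on the lower. No pool holds libraries of both labels. The last 2 comparisons share the itaconate libraries and the first 2 share the KO libraries, so their values are not independent of each other.

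**Figure D4:**
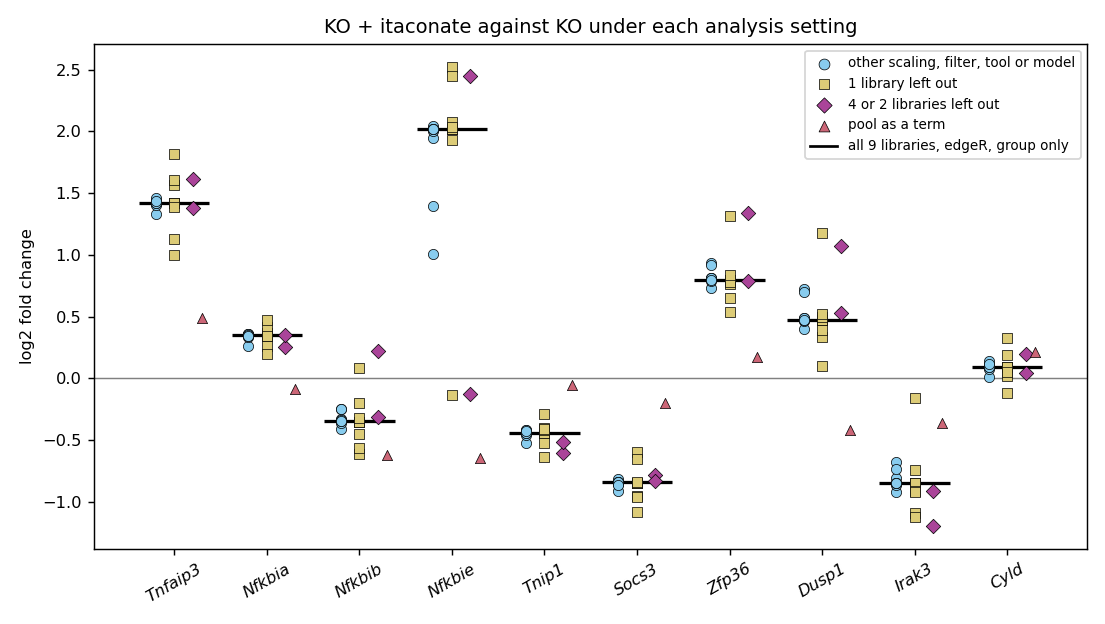
Log2 fold change (vertical axis) of each gene for KO with itaconate against KO, with black lines for the edgeR fit of all 9 libraries and symbols for each other setting. Tnfaip3 stays between 0.49 and 1.81 and Socs3 between -1.09 and -0.20, while Nfkbie moves to -0.14 when 1 library is left out.

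Set beside the Acod1 reads, 4 members had a fixed place within each labelled group. The library with high Acod1 was the highest in all 3 groups for Tnfaip3, Nfkbia and Dusp1, as for 5.57% of tested genes. It was the lowest in all 3 for Socs3, as for 5.29%. Some of these places were near ties, within counting error. Nfkbia in WT was at 1483 against 1471 CPM (errors of 0.95% and 0.73%). Socs3 in KO was at 171.5 against 172.9 CPM (errors of 2.40% and 1.68%). For Zfp36 and Nfkbib the library with high Acod1 was the highest in WT and KO and the lowest in KO with itaconate.

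The likeness of patterns was measured as the root-mean-square difference of log2 CPM, centred on each gene's own mean, over the 9 libraries. These values describe which genes lie nearest among 10781 and carry no test. Nearest to Tnfaip3, whose own spread was 0.78, were Btg1, an antiproliferative gene (0.16), Txnip, an inhibitor of thioredoxin (0.23), and Prcp, a lysosomal carboxypeptidase (0.24). Nearest to Nfkbia (own spread 0.26) were Nipa2, Runx1 and Dennd5a, at 0.07, 0.09 and 0.09. Nearest to Socs3 (own spread 0.51) were Inppl1, Tmem159 and Tsc2, at 0.17, 0.18 and 0.18. Within the 10 genes, Zfp36 and Dusp1 were each other's nearest at 0.34, and Tnfaip3 was nearest to Zfp36 at 0.40. For Nfkbia, Nfkbib, Tnip1 and Cyld the nearest other member was farther away (0.39, 0.46, 0.42 and 0.39) than the gene's own spread (0.26, 0.44, 0.26 and 0.28). This measure counts the size of a gene's swings as well as their direction. It therefore cannot show whether genes of unlike spread moved together.

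The rest of the pathway was measured in 10 lists, in which no gene passed the edgeR threshold in any comparison. Values below are given for the 2 genes of each list with the smallest p. Counts and medians follow the order KO against WT, KO with itaconate against KO, and KO with itaconate against WT, for which 48.9%, 48.4% and 49.1% of all tested genes lay above 0. In the receptor-proximal list 12 of 13 genes were tested, of which 8, 5 and 6 lay above 0, with medians of 0.17, -0.16 and -0.03. In the first comparison its leading genes were Ticam2 (0.42 ± 0.30) and Traf6 (-0.45 ± 0.37), and in the second Myd88, the adaptor of most Toll-like receptors (-0.78 ± 0.34), and Traf6, the ubiquitin ligase downstream of it (0.64 ± 0.37). In the last they were Irak1 (0.62 ± 0.29) and Ly96, the LPS-binding partner of the receptor (-0.80 ± 0.42). Among 15 kinases and adaptors of the IκB kinase step, of which 8, 5 and 5 lay above 0, with medians of 0.04, -0.17 and -0.07, Chuk, which encodes an IκB kinase subunit, differed by 0.80 ± 0.29 in KO against WT, and Map3k14 by 0.32 ± 0.30. Map3k14, the kinase of the noncanonical pathway, differed by -0.71 ± 0.30 in KO with itaconate against KO, and Map3k7 by 0.93 ± 0.44. Against WT, Map3k7 differed by 0.88 ± 0.44 and Ikbke by -0.56 ± 0.28.

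The 5 NF-κB subunit genes had 2, 4 and 2 above 0 and medians of -0.19, 0.08 and -0.22. Rela (-0.30 ± 0.29) and Nfkb2 (-0.34 ± 0.36) led in KO against WT. Nfkb1 and Rel led in both comparisons with itaconate, at 0.49 ± 0.29 and 0.41 ± 0.29 against KO and at 0.56 ± 0.29 and 0.49 ± 0.30 against WT. The 3 atypical IκB genes had 1, 2 and 2 above 0 and medians of -0.25, 0.06 and 0.03. Nfkbiz, a nuclear co-activator, was at 0.26 ± 0.27, -0.08 ± 0.26 and 0.19 ± 0.27, Nfkbid at -0.29 ± 0.37 in KO against WT and -0.24 ± 0.37 in KO with itaconate against WT, and Bcl3 at 0.28 ± 0.35 in KO with itaconate against KO.

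Further lists could be set beside relatives or partners among the members, and not every gene in them is an inhibitor. Of 11 A20 partners and deubiquitinases (3, 6 and 4 above 0, medians -0.14, 0.03 and -0.07), Tnip2, a relative of Tnip1, was at -0.67 ± 0.27 in KO against WT and 0.43 ± 0.26 in KO with itaconate against KO. Tnip3 was at 0.36 ± 0.28 in the former and Spata2 at 0.48 ± 0.32 in the latter, while Otulin (0.52 ± 0.27) and Sharpin (-0.61 ± 0.32) led against WT. The 7 other SOCS genes had 4, 4 and 5 above 0 and medians of 0.11, 0.37 and 0.18. In KO against WT Socs2 (0.83 ± 0.76) and Socs4 (0.27 ± 0.35) led, in KO with itaconate against KO Cish (1.56 ± 0.68, at 0.7 and 2.2 CPM) and Socs5 (0.53 ± 0.33), and against WT Socs5 (0.76 ± 0.33) and Socs6 (0.61 ± 0.34). In KO with itaconate against KO, where Socs3 was at -0.84, 3 of these 7 relatives also lay below 0.

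Regulators of mRNA decay, the list set beside Zfp36, had 0, 6 and 4 of 6 genes above 0 and medians of -0.11, 0.32 and 0.19. Rc3h1, which encodes Roquin, was at 1.31 ± 0.44 and 1.25 ± 0.44 in the comparisons with KO and WT, and Zfp36l1, a paralogue of Zfp36, at 0.87 ± 0.29 and 0.79 ± 0.29. Zfp36l1 was the 1 gene of the 6 whose itaconate libraries all lay above those of KO (5.61% of tested genes) and of WT (7.3%). Rc3h1 overlapped in both, at 265 ± 195 CPM with itaconate, 107 ± 36.4 CPM in KO and 112 ± 14.6 CPM in WT. In KO against WT Zfp36l2 (-0.28 ± 0.29) and Zc3h12a (-0.20 ± 0.28) led. Among 8 other dual-specificity phosphatases (5, 5 and 5 above 0, medians 0.15, 0.10 and 0.45), Dusp5 was at 1.29 ± 0.41 in KO with itaconate against KO and 1.12 ± 0.41 against WT. Dusp6 (0.78 ± 0.43) and Dusp7 (0.57 ± 0.33) led in KO against WT, Dusp7 was at -0.43 ± 0.33 in KO with itaconate against KO, and Dusp6 at 0.86 ± 0.43 against WT. Of 8 tested inhibitors of Toll-like and interleukin-1 receptors (2, 6 and 5 above 0, medians -0.21, 0.21 and 0.11), Tollip was at -0.42 ± 0.30 and 0.66 ± 0.30 in the first 2 comparisons. Ptpn6 was at -0.42 ± 0.34 in KO against WT and -0.57 ± 0.34 in KO with itaconate against WT, Traf1 at 0.49 ± 0.42 against KO and Inpp5d at 0.27 ± 0.27 against WT.

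The outputs that this loop restrains were read from 15 tested NF-κB-dependent cytokines and enzymes, of which 6, 7 and 6 lay above 0, with medians of -0.22, -0.02 and -0.04. Nos2, the inducible nitric oxide synthase, was at 0.73 ± 0.41 and Il1b at -0.42 ± 0.28 in KO against WT. In KO with itaconate against KO, Nos2 was at -0.99 ± 0.42 and Ccl4 at 0.81 ± 0.47. Against WT, Icam1, an adhesion molecule, was at -0.91 ± 0.38 and Ptgs2, the inducible cyclooxygenase, at 1.39 ± 0.63. The list thus held genes on both sides in the comparisons in which Tnfaip3 and Zfp36 were higher.

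**Figure D5:**
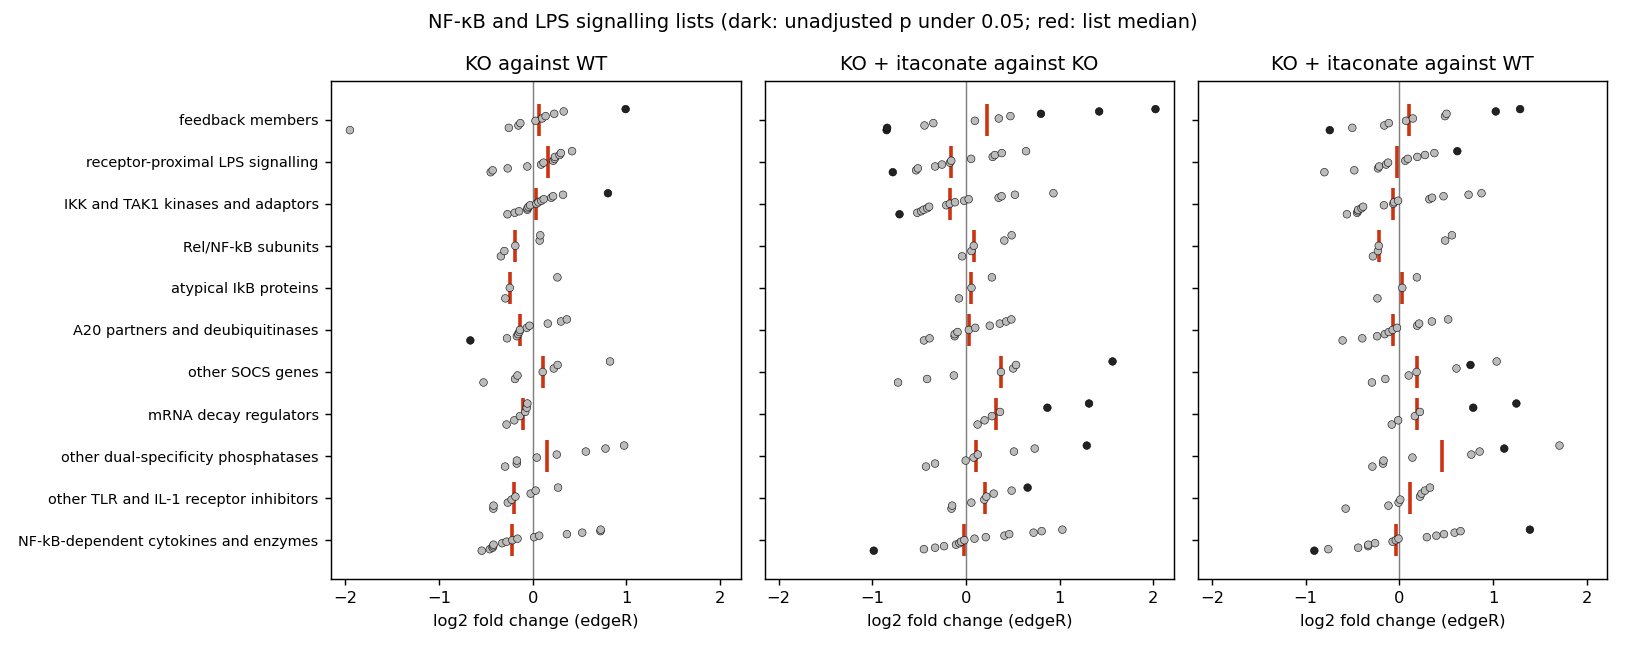
Log2 fold changes (horizontal axis) of each tested gene in the 10 feedback genes and the 10 other pathway lists, for the 3 comparisons, with the list median in red. The medians of the feedback genes are 0.06, 0.22 and 0.11, and no point passes the adjusted threshold.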

How the data were processed

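Oligo-dT-primed, barcoded and pooled strand-specific libraries were sequenced, per the labels' protocols, so reads lie mostly near 3′ ends. The authors deposited raw read counts per gene. The submitters' processing notes list STAR, HTSeq and mm10, with no versions, and the annotation release and any filter are not given in the sources used here. Counter summary lines (5) were kept out of library sizes and tests. They include reads outside genes (23.1% to 33.7% of a library) and reads with several alignments (17.1% to 19.96%). Symbols came from a GRCm38 name table (21745 of 22165 identifiers), and positions from the GENCODE annotation of that build. Opposite-strand genes overlap 6 members.

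All 9 libraries entered 1 fit with edgeR 4.0.16 in R 4.3.3 (quasi-likelihood, two-sided, TMM, minimum count 10, group only). P-values were adjusted by Benjamini-Hochberg over 10781 genes, with a threshold of 0.05. The fit was tested on simulated data for each comparison (10605 to 10621 genes). Results follow the order KO against WT, KO with itaconate against KO, and KO with itaconate against WT. The fit recovered 76, 67 and 84 of 100 genes with a 4-fold change but 12, 9 and 18 of 100 with a 2-fold change. False calls numbered 2, 4 and 4. DESeq2 1.42.0, limma 3.58.1 (voom), other scalings, filters and models, and fits without single libraries were the alternatives. A depth of 3 reads corresponds to 0.147 to 0.408 CPM, covering counting error only. The members and lists were chosen with earlier results of these data known. Named genes were the 10 members, the 2 genes of each list with the smallest p per comparison, the 3 nearest genes of Tnfaip3, Nfkbia and Socs3, and Acod1. Genes outside this rule are marked in the text.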

Additional observations from a re-analysis of the deposited data

How the results depend on the processing

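The fit was repeated under 22 other settings for KO against WT and 21 for each other comparison. The direction of the members' values was kept in 194 of 220 refits for KO against WT, in 202 of 210 for KO with itaconate against KO and in 192 of 210 for KO with itaconate against WT. Tnip1 and Irak3 kept it throughout in the first, Tnfaip3, Tnip1, Socs3, Zfp36 and Irak3 in the second, and Nfkbib and Irak3 in the last. For KO against WT, Dusp1 was -0.022 with upper-quartile factors, -0.070 with limma-voom, -0.68 with the pool as a term and -0.66 in pool 1 alone, and Zfp36 was -0.29 and -0.27 in the last 2. Without the 4 libraries that go against their Acod1 labels, Nfkbia was -0.00020, Zfp36 -0.61, Dusp1 -1.36 and Cyld 0.019. Without the 2 libraries that share a barcode, Tnfaip3 was 0.084, Nfkbib 0.079, Nfkbie 0.029 and Socs3 -0.10. For KO with itaconate against KO, the pool term gave Nfkbia -0.089, Nfkbie -0.65 and Dusp1 -0.42. Nfkbib was 0.22 without the 4 libraries and Nfkbie -0.13 without the 2. For KO with itaconate against WT, Nfkbie was -0.014 with no scaling, -0.069 with limma-voom, -0.83 without the 4 and -0.10 without the 2. The pool term, with no pool holding both labels, gave Tnfaip3 -0.047, Nfkbia -0.025, Nfkbie -2.63, Tnip1 0.46, Socs3 0.010, Zfp36 -0.12 and Dusp1 -1.10. Without the 4, Socs3 was 0.0014, Dusp1 -0.29 and Cyld 0.063. The causes were not tested.

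Leaving out 1 library at a time gave, for KO against WT, -0.51 to 0.16 for Tnfaip3, -0.57 to 0.11 for Nfkbib, -2.42 to 0.020 for Nfkbie, -0.15 to 0.24 for Socs3, -0.27 to 0.49 for Zfp36 and -0.66 to 0.57 for Dusp1. For KO with itaconate against KO it gave -0.12 to 0.33 for Cyld, -0.61 to 0.082 for Nfkbib and -0.14 to 2.52 for Nfkbie. Nfkbie ranged from -2.09 to 2.04 for KO with itaconate against WT.

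Counts of called genes, 0 in all 3 comparisons, were 0 to 0, 0 to 6 and 0 to 4 on leaving out 1 library, the highest without KO with itaconate replicate 1. DESeq2 called 1, 15 and 18 genes. The edgeR fit with no filter on low counts called 80 genes for KO with itaconate against KO and 92 for KO with itaconate against WT, with 1 member, Tnfaip3, in the former. Without the 4 libraries edgeR called 2, 217 and 1 genes, with 2 members in the second.

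Deviations from group means correlated between -0.16 and 0.24 for libraries with the same replicate number. Libraries with unlike numbers were not set beside them, so whether the numbers pair the libraries was not tested. With the number as a replicate block edgeR called 0 genes and 0 members, and Dusp1 was -0.032 in KO against WT and Nfkbie -0.11 in KO with itaconate against WT. Members had 133 to 27473 reads per library, so counting error was at most 8.67%. Leaving out the 4 or the 2 libraries was an alternative added once the data were known.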
